A study of Rattus norvegicus with 12 samples.

Results

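The nuclear genes for the subunits of the respiratory chain and of the ATP synthase were examined across 12 RNA-seq libraries of rat skeletal muscle. They were taken by name, as whole symbols of the count table built like those of the subunit families of complexes I to V. These were Ndufa, Ndufb, Ndufc, Ndufs and Ndufv with a number, Sdha to Sdhd, Uqcr, Cyc1, Atp5, and Cox4 to Cox8 with a letter and at most a digit after it. The rule gave 83 of 24648 genes and leaves out longer symbols such as Cox7a2l. Complex I held 35 of them, complex II 4, complex III 9, complex IV 18 and complex V 17. Ndufa4 and its relative Ndufa4l2 were counted with complex IV, where the Ndufa4 protein sits. Names decide membership here, and a few do not stand for a subunit: Atp5s and Atp5sl are now called Dmac2l and Dmac2, and Ndufa10l1 and Ndufa4l2 are relatives of a subunit gene.

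The rats were males aged 540 days. In the control groups the dams had been given a control diet, and in the restriction groups a diet with 6% protein through gestation and lactation; the offspring are compared, not the dams. Each library carries a number in its title. Controls 3, 8 and 9 and restriction libraries 12, 13 and 15 form set 1, and controls 23, 28 and 29 and restriction libraries 32, 33 and 35 form set 2, with 3 libraries in each of the 4 groups. The study took soleus, a slow oxidative muscle, and extensor digitorum longus, a fast glycolytic one, but no label ties either muscle to a library, and the sets keep their numbers here. No label says whether libraries came from separate animals or litters, so p-values measure the spread between libraries, which may be partly technical, and littermates would make them too small.

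The respiratory chain sits in the inner mitochondrial membrane. Complexes I and II feed electrons from NADH and succinate to ubiquinone, complex III passes them to cytochrome c, complex IV hands them to oxygen, and complex V, the ATP synthase, uses the proton gradient that complexes I, III and IV build. In all but complex II, a small part of the subunits comes from mitochondrial DNA. The rest come from nuclear genes such as those described here, some of which (Cox4, Cox6a, Cox7a, Cox8) exist as tissue isoforms. Slow fibres are known for a high mitochondrial content, and fast glycolytic fibres for a low one.

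Promoters of 5 genes are shown first, because these genes carry the differences between the sets described below: Sdha was higher in set 2, Atp5g2 was lower, and the Cox8a, Cox8b and Cox6a2 genes make up isoform pairs whose members were lower. All 83 members were found in the RefSeq gene table for GRCr8, 66 by current symbol and 17 by synonym, and 71 had a promoter in the RefSeq promoter table. Each line gives the 250 bases before the annotated start, 5′ to 3′ in the direction of the gene, in lower case with capitals for matches to a searched motif. The sites are chr1:30764303-30764552 (plus strand) for Sdha, chr7:135678219-135678468 (minus strand) for Atp5g2, chr1:213833624-213833873 (minus strand) for Cox8a, chr1:205408274-205408523 (minus strand) for Cox8b and chr1:192219717-192219966 (minus strand) for Cox6a2, all on GRCr8, whereas the counts were made on Rnor_6.0.
Sdha: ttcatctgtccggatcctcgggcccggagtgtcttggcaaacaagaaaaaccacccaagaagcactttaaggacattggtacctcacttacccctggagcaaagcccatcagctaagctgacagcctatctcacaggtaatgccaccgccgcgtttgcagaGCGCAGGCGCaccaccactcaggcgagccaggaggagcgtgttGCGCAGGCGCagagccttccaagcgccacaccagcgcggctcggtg
Atp5g2: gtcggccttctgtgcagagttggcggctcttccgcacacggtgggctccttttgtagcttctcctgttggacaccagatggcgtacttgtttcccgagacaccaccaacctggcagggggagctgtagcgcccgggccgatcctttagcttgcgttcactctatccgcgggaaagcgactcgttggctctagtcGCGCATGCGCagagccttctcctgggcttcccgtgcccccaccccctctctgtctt
Cox8a: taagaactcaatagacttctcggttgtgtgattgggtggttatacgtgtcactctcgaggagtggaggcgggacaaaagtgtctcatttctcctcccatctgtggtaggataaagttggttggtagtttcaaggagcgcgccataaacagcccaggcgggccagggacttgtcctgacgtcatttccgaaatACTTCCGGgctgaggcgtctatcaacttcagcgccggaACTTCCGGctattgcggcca
Cox8b: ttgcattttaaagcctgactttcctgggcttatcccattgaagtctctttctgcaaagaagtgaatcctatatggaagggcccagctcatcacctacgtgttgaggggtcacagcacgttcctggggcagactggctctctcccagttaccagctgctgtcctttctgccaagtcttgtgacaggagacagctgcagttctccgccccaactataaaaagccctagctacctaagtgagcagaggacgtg
Cox6a2: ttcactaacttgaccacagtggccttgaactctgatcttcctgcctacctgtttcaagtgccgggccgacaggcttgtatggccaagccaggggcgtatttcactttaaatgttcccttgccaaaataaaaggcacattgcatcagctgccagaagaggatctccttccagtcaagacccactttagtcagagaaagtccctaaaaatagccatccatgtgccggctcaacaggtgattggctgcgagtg

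In these lines the Sdha promoter holds 2 matches to the NRF1 motif, beginning 89 and 46 bases before the start, and the Atp5g2 promoter holds 1, at 56 bases. The Cox8a promoter holds 2 matches to the ETS motif, at 58 and 20 bases before the start. The promoters of Cox8b and Cox6a2, the isoforms that striated muscle favours, hold none of the motifs in these 250 bases.

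The motifs were the palindrome of NRF1 (nuclear respiratory factor 1), whose matches are the capitals of the Sdha and Atp5g2 lines, CCGGAAGT for the ETS family that includes GABP, TCAAGGTCA for the estrogen-related receptors and AAGATGGC for YY1, searched as exact letters on both strands of the 300-base window that adds 50 bases after the start. In the 71 members with a promoter, matches of different motifs overlapped in 0. NRF1 letters were found in 14 of the 71 (19.7%) against 4.71% of all 27457 promoters, and YY1 letters in 16 (22.5%) against 3.44%. Most of the latter did not lie wholly before the start, since in the 250 bases before it 2 members (2.82%) and 1.69% of all promoters held YY1 letters. The ETS letters were in 7 (9.86%) against 4.01%, and the estrogen-related receptor letters in 2 (2.82%) against 0.412%. Over the 18999 promoters of protein-coding genes alone, the 300-base shares were 6.08% for NRF1, 3.92% for YY1, 4.99% for ETS and 0.353% for the estrogen-related receptors. At least 1 of the motifs was present in 33 of the 71 (46.5%) and in 11.5% of all promoters. By complex, the NRF1 letters were in 7 of 31 promoters of complex I, 1 of 4 of complex II, 1 of 6 of complex III, 0 of 15 of complex IV and 5 of 15 of complex V. A match describes the letters and does not show that a factor binds there.

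Total counts ran from 22829692 to 38313704 per library. Members made up 4.23% to 5.32% of the counts in set 1 and 3.72% to 5.11% in set 2. Over all genes the sets parted along the first principal component (47.9% of the variance). All 13 tested slow-fibre genes were lower in set 2 (summed level, as CPM or counts per library total scaled by TMM, 101379 to 119192 CPM in set 1 and 3829 to 9122 CPM in set 2), and all 15 fast-fibre genes were higher (9228 to 18677 CPM against 176788 to 233369 CPM). Of the marker lists for other cells, 13 of 13 macrophage genes, 9 of 11 adipocyte genes and 7 of 10 fibro-adipogenic genes were lower in set 2, with summed levels of 333 to 810 against 115 to 216 CPM for macrophages. Adipocyte sums were 19032 to 26543 against 715 to 1172 CPM, mostly Car3, which muscle fibres also express; Adipoq, made by adipocytes, was present in both sets (mean 36.7 and 1.89 CPM in the controls). Of 10 endothelial genes 5 were higher and 1 lower, of 10 Schwann cell genes 4 and 3, and of 6 red blood cell genes 0 and 0. The part of these differences in the results below was not tested, and in whole muscle fewer cells of a type and less RNA per cell cannot be told apart.

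Control 23 stood apart from the other 11 libraries. On the second principal component (11.2% of the variance) it lay at 88.0, against −23.7 to 19.6 for the rest, and its mitochondrial tRNA and rRNA made up 6.36% of counts, against 1.97% to 5.10% elsewhere. Globin genes took 0.202% of its counts, against 0.0385% to 0.0919% elsewhere, and its TMM scaling factor was 0.815. It had the highest CPM of set 2 in 71 of 81 tested members, and its median member lay 0.50 above the gene's mean over the 12 libraries on the log2 scale. For the genes named below, calls that it changed and values that it moved by over 1.5 times in the comparison described are therefore given without it too; counts of libraries that do not overlap between the sets are given with all 12.

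**Figure D1:**
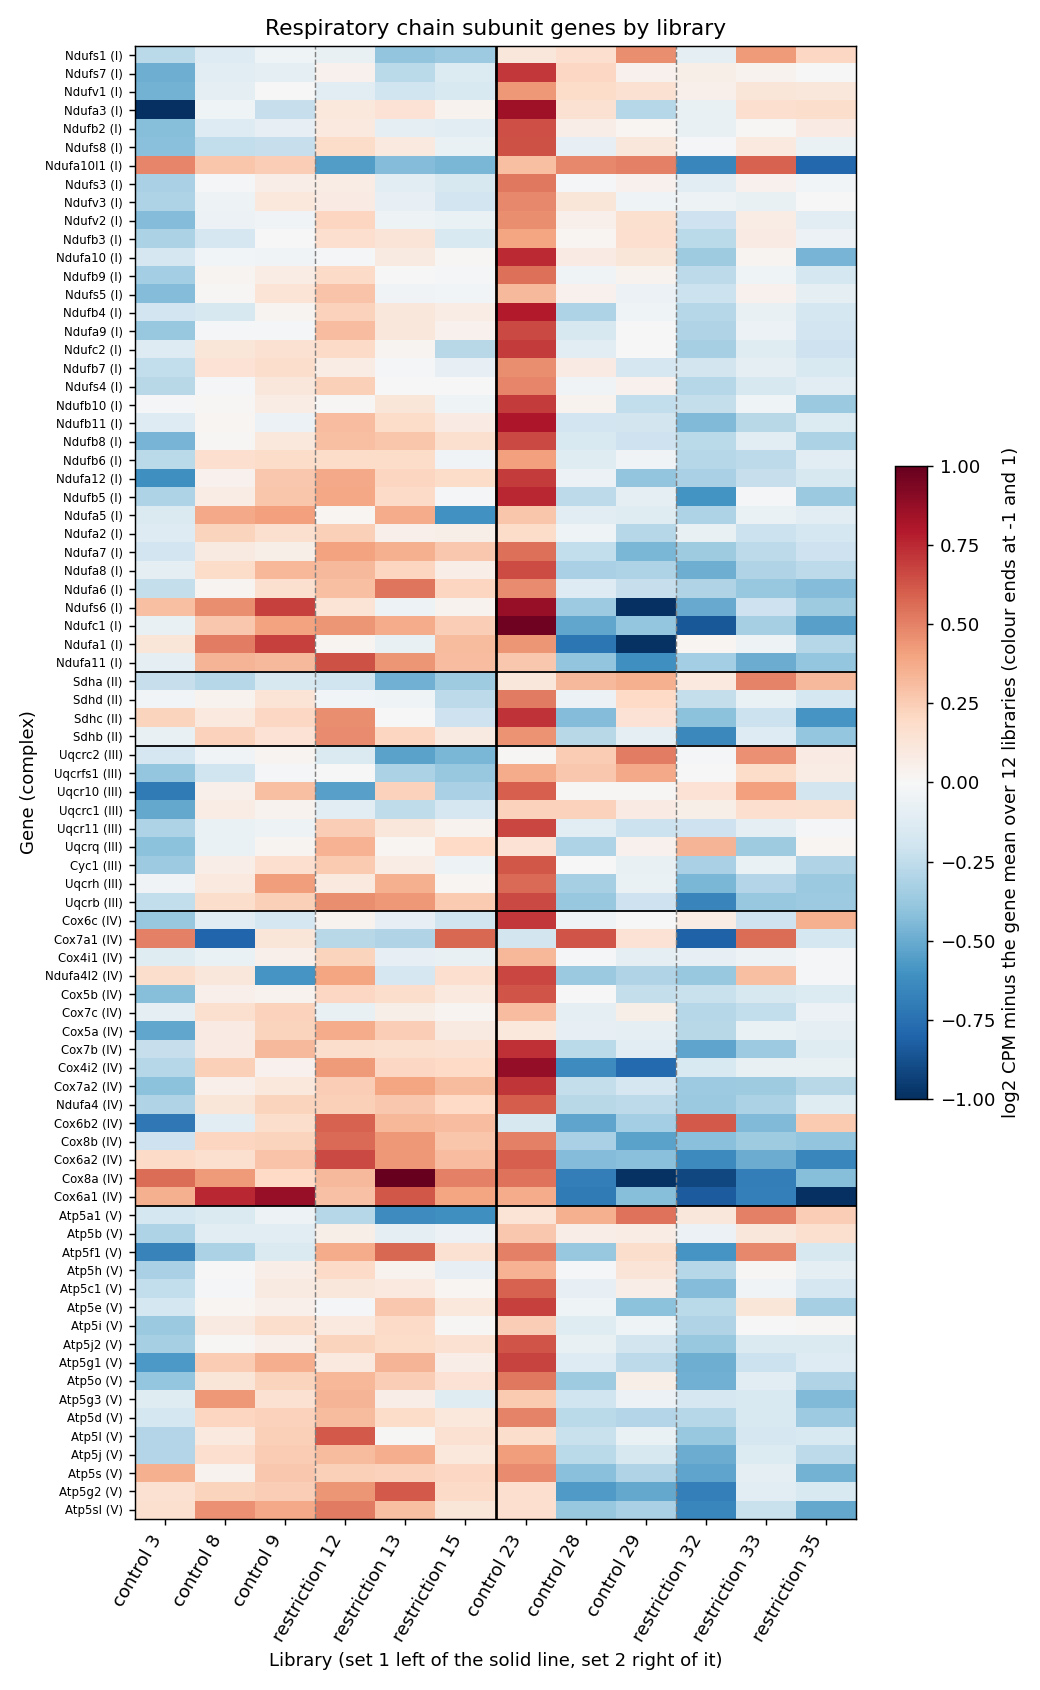
Each row is 1 of 80 of the 81 tested subunit genes, ordered by complex and, within a complex, by the difference between the sets; each column is 1 of the 12 libraries. Colour is log2 CPM minus the gene's mean over the libraries, with colours ending at −1 and 1. The column of control 23 is red for most genes, and that of control 3 is blue for most.

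Of the 83 members, 81 passed the filter on low counts and were tested among 14225 genes. Cox8c and Cox7b2, isoforms known mainly from testis, had 0 counts in all 12 libraries; 3 counts, the limit that a count of 0 allows, would be 0.0783 to 0.131 CPM by library size alone (counting error only). The lowest tested members were Cox7a1, with 2 to 28 counts per library, Cox6b2, with 5 to 35, and Ndufa1, with 27 to 150. Cox7a1 is known as the muscle form of subunit 7a, yet it had few counts in these muscles. In RefSeq 40 of the 83 members have at least 1 named copy or pseudogene, up to 11 for a single gene, so reads that such copies share with the parent could have been counted at either. No gene lengths are available, so levels are compared between libraries and never between genes.

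Most subunit genes were high or low in the same libraries within a set. In set 1, control 3 was the lowest library in 61 of the 81 members, with a median deviation of −0.27, and restriction 12 the highest in 44, with 0.22. In set 2, restriction 32 was the lowest in 49 members, with −0.29. The share of mitochondrial tRNA and rRNA was lowest in control 3 within set 1 (2.52%) and highest in restriction 12 (5.10%). It was lowest in restriction 32 within set 2 (1.97%) and highest in control 23. All 5 complexes had their highest median in control 23, from 0.42 for complex V to 0.57 for complex IV. Complex II did not follow the others in control 3, where its median was −0.05 against −0.37 to −0.22 for the others.

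**Figure D2:**
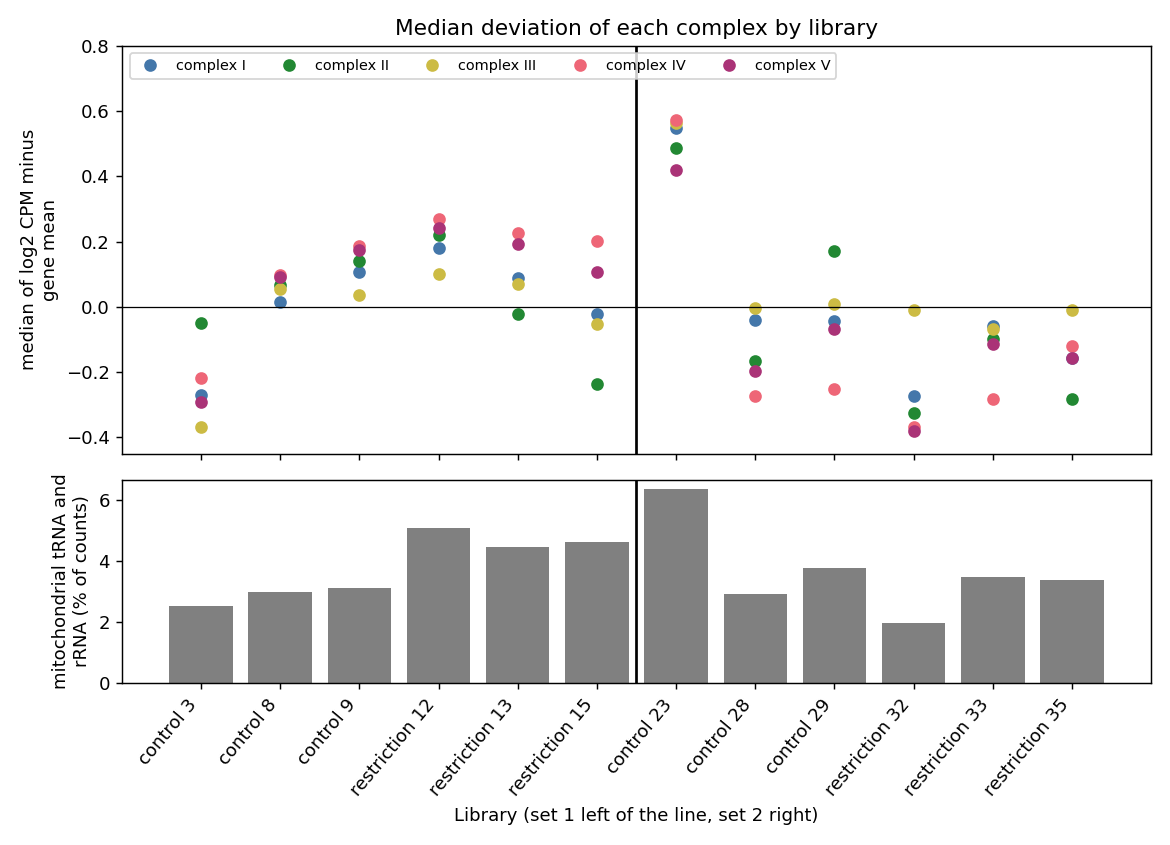
Upper panel: for each of the 12 libraries, the median over a complex's tested genes of log2 CPM minus the gene's mean. Lower panel: mitochondrial tRNA and rRNA as a percentage of counts. Medians in control 23 lie between 0.42 and 0.57, above every other library, and its bar (6.36%) is the tallest.

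The first comparison set the 2 sets side by side over both diets. With all 12 libraries, 8 of the 81 tested members were higher in set 2 and 8 were lower at an adjusted p under 0.05 (edgeR's quasi-likelihood test, Benjamini-Hochberg adjustment over all 14225 genes). Over all genes 39.5% were called (19.9% higher and 19.6% lower). The median member was at −0.04 on the log2 scale (set 2 over set 1), against −0.01 for all genes, and 51 of 81 members lay below 0 where 50.3% of all genes did. Libraries of the sets did not overlap for 4 members, Sdha, Atp5a1, Uqcrfs1 and Ndufv1, all higher in set 2 (8.97% of all genes), and for 0 in the lower direction (9.77%).

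Without control 23 the picture leaned to lower levels in set 2: 7 members were higher and 31 lower, against 21.6% and 22.5% of 14637 genes tested, and the median was −0.20. Of the 8 higher members 7 were again called higher, all but Ndufs7, and all 8 lower members were again called lower. By complex the lower calls became 11 of 35 for complex I, 2 of 4 for complex II, 2 of 9 for complex III, 8 of 16 for complex IV and 8 of 17 for complex V. With library size alone as scaling, which moved the median of all genes to −0.11, 6 members were higher and 22 lower.

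**Figure D3:**
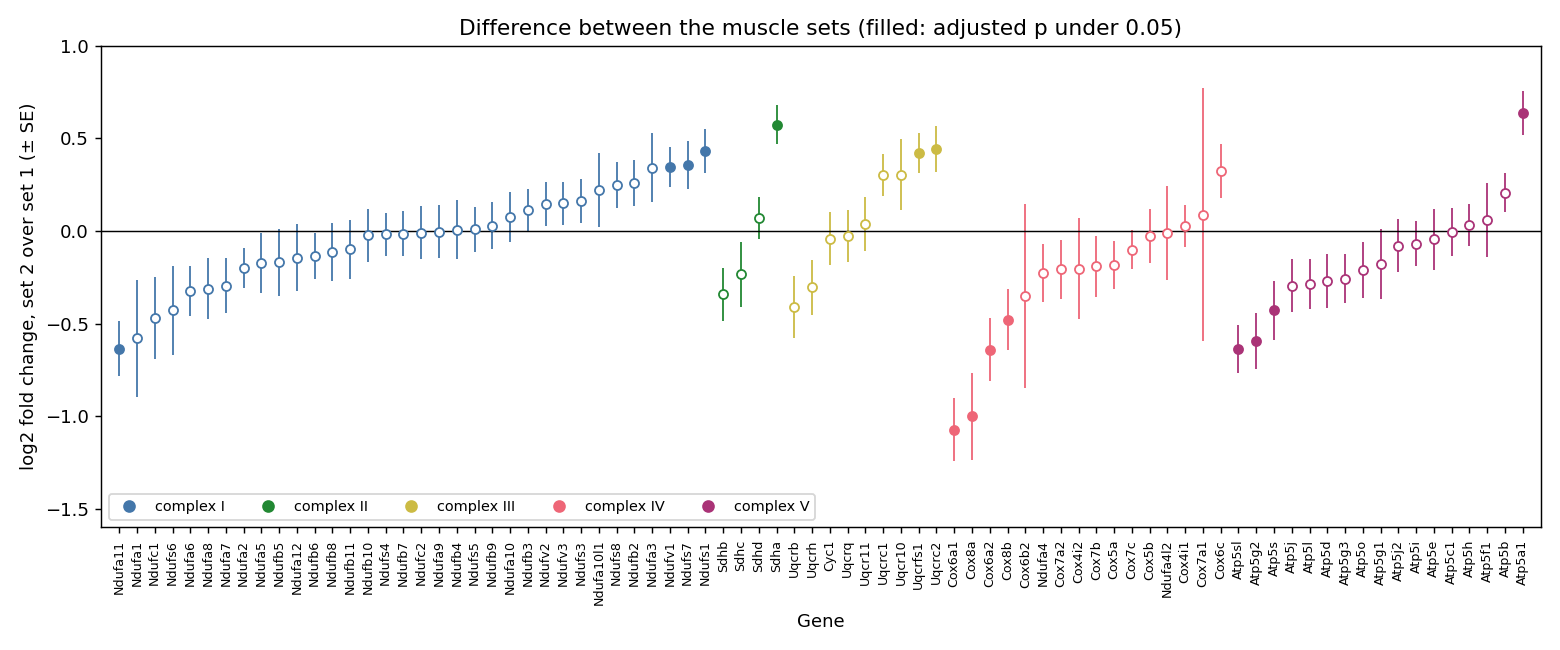
Log2 fold change of set 2 over set 1 with its SE for 80 of the 81 tested genes (6 libraries per set), grouped by complex; filled points have an adjusted p under 0.05. Complex I runs from Ndufa11 at −0.64 to Ndufs1 at 0.43, and the filled points of complex IV all lie below 0.

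Complex I was split between its core and its accessory subunits. All 7 nuclear core subunits, which carry the flavin and the iron-sulphur clusters along the electron path or the quinone site, lay above 0 (median 0.28), and 4 were called higher. Of the 27 accessory subunits 0 were called higher and 1 lower (median −0.10). This grouping into core and accessory was drawn with results known. Without control 23 the core had 3 of 7 higher and 0 lower, and the accessory subunits 0 higher and 11 lower.

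Ndufs1, the largest iron-sulphur subunit, had 242 CPM in its lowest set 1 library, a median of 278 and a highest value of 309, against 298, 364 and 440 CPM in set 2. Ndufv1, which binds the flavin that takes electrons from NADH, had 439, 557 and 608 CPM in set 1 and 632, 671 and 826 CPM in set 2. The sets of Ndufv1 did not overlap, and those of Ndufs1 overlapped only where restriction 32 (298 CPM) fell among the higher set 1 libraries. The log2 fold changes were 0.43 ± 0.12 (SE) for Ndufs1 (adjusted p = 0.0102 in edgeR's quasi-likelihood test) and 0.34 ± 0.11 for Ndufv1 (adjusted p = 0.0201).

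Ndufs7, whose cluster passes electrons to ubiquinone, had 457, 589 and 660 CPM (lowest, median, highest) in set 1 and 640, 664 and 1045 CPM in set 2. Control 23 had the highest level, and the sets overlapped narrowly. Ndufs7 rose by a small amount, 0.36 ± 0.13 (adjusted p = 0.0400 in edgeR). Of 12 fits that each left out 1 library, Ndufs7 was called in 4 (without control 9, 28 or 29 or restriction 12). Without control 23 it was at 0.24 (adjusted p = 0.0712). Of the core subunits that did not pass, Ndufs8 was at 0.25 and Ndufv2 at 0.14, and at 0.12 and 0.07 without control 23.

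On the accessory side, Ndufa11, a subunit of the membrane arm, had 488, 659 and 816 CPM in set 1 and 343, 399 and 632 CPM in set 2, where the highest library was control 23 and the next was at 414 CPM. It was lower in set 2, at −0.64 ± 0.15 (adjusted p = 0.00388 in edgeR's quasi-likelihood test), and at −0.80 without control 23. Ndufa1, a small membrane subunit, and Ndufc1, another, were at −0.58 ± 0.31 and −0.47 ± 0.22 and did not pass. Ndufc1 had 121 to 173 CPM in set 1; in set 2 it had 251 CPM in control 23 and 70.7 to 101 CPM in the other 5 libraries. Without control 23 both passed, Ndufa1 at −0.97 (adjusted p = 0.00732 in edgeR) and Ndufc1 at −0.80 (adjusted p = 9.78e-05). Ndufa1 had 2.15 to 3.97 CPM in set 1. In set 2 controls 28 and 29 had 1.19 and 0.900 CPM, while the restriction libraries, at 1.79 to 2.32 CPM, overlapped set 1.

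Complex II, succinate dehydrogenase, links the citric acid cycle to the chain and is made from nuclear genes alone. Sdha, its flavoprotein and a common histochemical marker of oxidative capacity, had 510, 491 and 535 CPM in the set 1 controls and 522, 428 and 466 CPM in the set 1 restriction libraries. In set 2 the controls had 648, 749 and 765 CPM and the restriction libraries 641, 842 and 750 CPM. Every set 2 library lay above every set 1 library, and the diets overlapped in both sets. The log2 fold change was 0.58 ± 0.11 (adjusted p = 0.000658 in edgeR's quasi-likelihood test) with all libraries and 0.60 (adjusted p = 0.000204) without control 23.

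The partner subunits did not follow Sdha. Sdhb, the iron-sulphur subunit, had 694, 828 and 1012 CPM in set 1 and 468, 635 and 1000 CPM in set 2, and was at −0.34 ± 0.14 (adjusted p = 0.0734 in edgeR). Sdhc and Sdhd, the membrane anchors, were at −0.23 ± 0.17 and 0.07 ± 0.11. Without control 23, which had the highest Sdhb of set 2 (the next was control 29 with 687 CPM), Sdhb fell by 0.47 (adjusted p = 0.00512) and Sdhc by 0.41 (adjusted p = 0.0289). Sdhd was at −0.02 in that fit. With all libraries 1 of the 4 members of complex II was called, higher.

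In complex III, 2 of 9 members were called, both higher and both among its large proteins. Uqcrc2, a core protein of the matrix side, had 160, 207 and 236 CPM in set 1 and 230, 260 and 330 CPM in set 2, with a slight overlap. Uqcrfs1, the Rieske iron-sulphur protein, had 508, 555 and 664 CPM against 666, 775 and 863 CPM, with no overlap. The log2 fold changes were 0.44 ± 0.12 for Uqcrc2 (adjusted p = 0.0111 in edgeR's quasi-likelihood test) and 0.42 ± 0.11 for Uqcrfs1 (adjusted p = 0.00678).

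Cyc1, the cytochrome c1 that hands electrons to cytochrome c, was at −0.04 ± 0.14 and had its highest level, 1683 CPM, in control 23, without which it was at −0.18. Among the small accessory subunits Uqcr10 was at 0.30 ± 0.19, Uqcrh at −0.30 ± 0.15 and Uqcrb, which lies beside the quinone site, at −0.41 ± 0.17, and none passed. Uqcrb had 308 to 506 CPM in set 1, and 579 CPM in control 23 but 231 to 317 CPM in the other set 2 libraries. Without control 23, Uqcr10 was at 0.18, and Uqcrb fell by 0.62 (adjusted p = 0.000517 in edgeR) and Uqcrh by 0.46 (adjusted p = 0.00394).

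Complex IV, cytochrome c oxidase, held the largest decreases. Of its 16 tested members 4 were lower, 0 were higher, and the median was −0.20. The 4 were both isoforms of subunit 6a and both isoforms of subunit 8 that the table held counts for. Cox6a1, the form found in most tissues, had 136, 180 and 196 CPM in the set 1 controls and 131, 165 and 140 CPM in the set 1 restriction libraries. In set 2 it had 138, 65.1 and 79.5 CPM in the controls and 59.7, 66.2 and 52.6 CPM in the restriction libraries. Control 23, at 138 CPM, lay within the set 1 range, and the other 5 set 2 libraries lay below it. Cox6a1 was lower, at −1.07 ± 0.17 (adjusted p = 0.000197 in edgeR's quasi-likelihood test), and at −1.27 without control 23.

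Cox6a2, the heart and muscle form, was lower too, with 4820, 5298 and 6825 CPM (lowest, median, highest) in set 1 and 2739, 3121 and 6529 CPM in set 2. Cox8a, the widely expressed form of subunit 8, had 98.8, 119 and 192 CPM against 43.1, 53.1 and 126 CPM. Cox8b, its muscle form in rodents, had 1487, 2042 and 2535 CPM against 1182, 1321 and 2427 CPM. In all 3 the highest set 2 value was that of control 23; without it the set 2 maxima were 3218, 63.9 and 1371 CPM, each below the lowest set 1 library.

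The log2 fold changes were −0.64 ± 0.17 for Cox6a2 (adjusted p = 0.00824 in edgeR), −1.0 ± 0.23 for Cox8a (adjusted p = 0.00376) and −0.48 ± 0.16 for Cox8b (adjusted p = 0.0319). Without control 23 they were −0.87, −1.32 and −0.68. Cox8b was called in 3 of the 12 fits that left out 1 library (control 3, control 23 or restriction 15), and Cox6a1, Cox6a2 and Cox8a in all 12.

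The other isoform genes of complex IV did not pass with all libraries. Cox4i1, the common form of subunit 4, had 1232, 1278 and 1566 CPM in set 1 and 1256, 1309 and 1688 CPM in set 2, a log2 fold change of 0.03 ± 0.11. Cox4i2, a form known from lung and hypoxic cells, had 4.57 to 7.78 CPM against 3.10 to 10.8 CPM (−0.20 ± 0.27). Cox7a2 was at −0.21 ± 0.16, Cox7a1 at 0.09 ± 0.68, Ndufa4 at −0.23 ± 0.16, Ndufa4l2 at −0.01 ± 0.25 and Cox6b2, a form known from testis, at −0.35 ± 0.50. Cox6c, a small membrane subunit, was at 0.32 ± 0.15, the highest value of the complex with all 12 libraries, and at 0.17 without control 23, where Cox7a1 was higher at 0.22. In that fit Cox4i1 was at −0.05 and Ndufa4l2 at −0.25, and Cox4i2, Cox7a2 and Ndufa4 passed as lower, at −0.61, −0.40 and −0.41 (adjusted p = 0.00848, 0.00585 and 0.00639 in edgeR). For Cox4i2, controls 28 and 29 had 3.49 and 3.10 CPM, while the set 2 restriction libraries, at 5.03 to 5.37 CPM, overlapped set 1.

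Because both forms of a subunit moved, the ratio of the muscle or alternative form to the common one was taken within each library, as log2 of (CPM + 0.5) for one over the other. Differences in this ratio between libraries do not depend on gene length. For subunit 6a it was 5.17, 4.74 and 4.75 in the set 1 controls and 5.70, 5.14 and 5.24 in the restriction libraries. In set 2 it was 5.56, 5.60 and 5.33 in the controls and 5.53, 5.52 and 5.69 in the restriction libraries. The set 2 ratios all lay above 5 of the 6 set 1 ratios, and restriction 12 alone reached above them.

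The mean ratio was 5.12 ± 0.36 (SD, n = 6) in set 1 and 5.54 ± 0.12 (SD, n = 6) in set 2, a difference of 0.41 with p = 0.0281 in an exact two-sided permutation test and 0.0703 after adjustment over the 5 pairs. For Cox8b over Cox8a the means were 4.03 ± 0.40 and 4.58 ± 0.23 (SD), a difference of 0.55 (exact permutation p = 0.0152, adjusted 0.0703). Neither pair passed the adjusted threshold; without restriction 12 both did, at 0.53 (adjusted exact permutation p = 0.0108) and 0.65 (0.0216). Without control 23 the differences were 0.41 and 0.61.

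The ratios of the other pairs did not differ beyond their spread: Cox4i2 over Cox4i1 by −0.30, Cox7a1 over Cox7a2 by 0.29 and Ndufa4l2 over Ndufa4 by 0.22 (exact permutation p = 0.167, 0.468 and 0.348). The difference of the Cox7a1 ratio was 0.50 without control 23, and this ratio rests on 2 to 28 counts of Cox7a1 per library. Between diets, the subunit 6a ratio was higher by 0.47 in the set 1 restriction libraries (exact permutation p = 0.200) and the subunit 8 ratio by 0.08 (p = 0.800). With 3 libraries against 3 this test cannot go below 0.1, so no diet difference of a ratio could have passed.

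**Figure D4:**
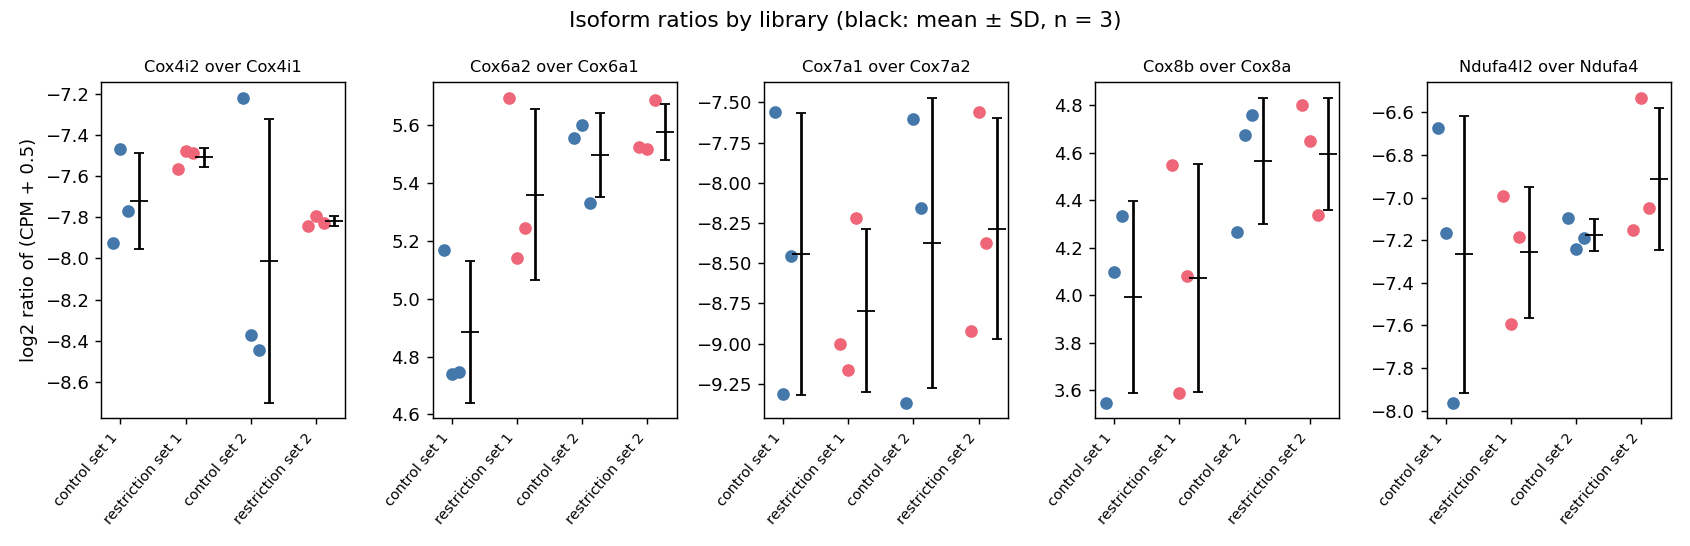
Log2 ratio of (CPM + 0.5) for 5 isoform pairs in each of the 12 libraries, by group; points are libraries, and black marks are the mean ± SD of 3. Ratios for subunits 6a and 8 are higher on average in set 2 (5.54 and 4.58) than in set 1 (5.12 and 4.03).

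In complex V, 1 of 17 members was higher and 3 were lower. Atp5a1, the alpha subunit of the catalytic head (now Atp5f1a), had 1461, 1487 and 1591 CPM in the set 1 controls and 1353, 1063 and 1077 CPM in the set 1 restriction libraries. In set 2 it had 1810, 2106 and 2395 CPM in the controls and 1779, 2332 and 1958 CPM in the restriction libraries. All set 2 libraries lay above all of set 1, and within set 1 the restriction libraries lay below the controls. Its log2 fold change between sets was 0.64 ± 0.12 (adjusted p = 0.000741 in edgeR's quasi-likelihood test), and 0.67 without control 23. Atp5b, the beta subunit beside it, was at 0.21 ± 0.11 and did not pass, and Atp5f1, a subunit of the peripheral stalk, was at 0.06 ± 0.20, and at −0.06 without control 23.

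Atp5g2, 1 of 3 genes for the same c subunit of the rotating ring, had 591, 626 and 812 CPM in set 1 and 331, 426 and 598 CPM in set 2, where control 23 was highest. It was lower, at −0.59 ± 0.15 (adjusted p = 0.00623 in edgeR), and at −0.74 without control 23. The mature protein of its 2 sister genes is the same, and Atp5g1 and Atp5g3 were at −0.18 and −0.26 without passing; without control 23 Atp5g1 was at −0.36 and did not pass, and Atp5g3 passed, at −0.34. Atp5sl and Atp5s, the pair counted with complex V by older name, were at −0.64 ± 0.13 (adjusted p = 0.00134) and −0.43 ± 0.16 (adjusted p = 0.0452). Atp5s was called in 3 of the 12 fits that left out 1 library (control 8, control 23 or restriction 33).

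Genes around the subunits also held calls in both directions. Beside the lists here and those of carriers, regulators and mitochondrial mass below, 19.9% of all genes were called higher and 19.6% lower. Without control 23 these shares of all genes were 21.6% and 22.5%. Of 15 tested assembly factors of complex I, 4 were higher and 2 lower. Dmac2, which that list also named, stands in the count table under its older symbol Atp5sl. It was therefore counted only with the members, as lower, and not with these factors. Acad9, an assembly factor that also acts on fatty acids, was lower, at −2.92 ± 0.19 (adjusted p = 4.65e-08 in edgeR), its control means being 328 CPM for set 1 and 36.7 CPM for set 2. Ecsit was at 0.56 ± 0.09 and Nubpl, which delivers iron-sulphur clusters to complex I, at −0.83 ± 0.19. For complex II 1 of 3 was higher (Sdhaf3, 0.65) and 1 lower (Sdhaf4, −0.70), with Sdhaf2 at 0.24 not passing. For complex III 1 of 6 was higher (Ttc19, 1.03) and 1 lower (Lyrm7, −0.74), with Bcs1l at −0.36 not passing, though it passed without control 23 at −0.47 (adjusted p = 0.00731 in edgeR).

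Of 24 complex IV factors 3 were higher and 3 lower, among them Cox17, a copper chaperone, at 0.59 ± 0.09, Cox15, of heme A synthesis, at 0.86 ± 0.17 and Cox7a2l, known from supercomplexes, at −0.41 ± 0.10. Of 6 complex V factors 0 were higher and 2 lower, Atpif1, the ATP synthase inhibitor, at −0.94 ± 0.12 and Oxa1l, the membrane insertase, at −0.35 ± 0.10, while Atpaf1 was at 0.26 without passing (0.11 without control 23). Without control 23 these lists had 4 higher and 4 lower for complex I, 1 and 1 for complex II, 1 and 2 for complex III, 4 and 6 for complex IV and 0 and 2 for complex V.

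Among 17 genes for mobile carriers and other electron donors, 4 were higher and 4 lower. Gpd2, which brings electrons of cytosolic NADH to ubiquinone in the glycerol phosphate shuttle, was higher by 2.62 ± 0.23 (adjusted p = 1.15e-06 in edgeR), its control means being 8.38 and 44.4 CPM. Coq2, of ubiquinone synthesis, was at 0.82 ± 0.10 and Etfa, which carries electrons from fatty acid oxidation, at −0.83 ± 0.12. Cycs, cytochrome c, was at 0.40 ± 0.15, at the edge of the threshold (adjusted p = 0.04999). Without control 23 Cycs was at 0.34 and did not pass (adjusted p = 0.0904 in edgeR), and this list had 3 higher and 4 lower.

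Of 21 tested regulators of mitochondrial gene expression 5 were higher and 5 lower. The coactivators Ppargc1a and Ppargc1b were higher in set 2, at 0.69 ± 0.18 and 1.10 ± 0.26, as was the mitochondrial DNA polymerase gene Polg at 1.05 ± 0.15. The receptors Esrrb and Esrrg were lower, at −2.65 ± 0.30 and −1.62 ± 0.25. Esrra (−0.21 ± 0.14), Nrf1 (0.18 ± 0.15), Gabpa (0.25 ± 0.17) and Tfam (−0.08 ± 0.11) did not pass. Of 27 genes for mitochondrial mass and import 6 were higher and 5 lower, among them Opa1 at 0.58, Hspa9 at 0.92 and Lonp1 at 0.60. Without control 23 the regulators again had 5 higher and 5 lower, and the mass and import genes 7 and 7.

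The second comparison asked how the dams' protein restriction bore on these genes in each set. With edgeR 0 of the 81 members were called in set 1 (0.00703% of all genes) and 0 in set 2 (0% of all genes). There were also 0 for the mean of both sets (0.00703%) and 0 for the difference between sets (0%). DESeq2 and limma-voom likewise called 0 members in each of these. In simulated counts the edgeR fit called 50% of 2-fold changes in set 1 and 45% in set 2. For the mean it called 67% of them, and for the difference 7%. At an unadjusted p under 0.05 edgeR counted 3 members in set 1 (7.54% of all genes), 16 in set 2 (8.59%), 3 for the mean (7.83%) and 14 for the difference (9.5%). Of these 2 were lower in set 1 (4.2% of all genes), 16 in set 2 (4.19%), 3 for the mean (4.25%) and 14 for the difference (4.35%). The corresponding counts were 3, 17, 4 and 19 with DESeq2 and 4, 12, 3 and 16 with limma-voom, for which shares over all genes at this threshold were not counted.

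In set 1 the subunit genes leaned higher in the restriction libraries: 60 of 81 lay above 0 and 21 below (50.4% of all genes), with a median of 0.13 on the log2 scale (restriction over control). Restriction libraries all lay above the controls for 19 members (7.97% of all genes) and all below for 4 (9.6%). Medians were 0.13 for complex I, −0.09 for complex II, −0.01 for complex III, 0.25 for complex IV and 0.13 for complex V. Without control 3, the lowest library in 61 members, the median was 0.04 and 48 of 81 lay above 0. Control 23 belongs to set 2 and enters only the shared spread here. With it left out, 13 members had an unadjusted p under 0.05 in set 1 (16.0% of members, 11.8% of all genes). Of these members 0 passed adjustment. The share of mitochondrial tRNA and rRNA was 2.52% to 3.13% in the set 1 controls and 4.48% to 5.10% in the restriction libraries, and its part in these values was not tested. Marker lists for other cells and fibre types also leaned one way in set 1, with 0 genes passing adjustment in each. In the restriction libraries 11 of 11 adipocyte genes lay below 0 (median −0.69), 12 of 13 macrophage genes above 0 (median 0.48) and 8 of 10 Schwann cell genes above 0 (median 0.44). Of the fast-fibre genes 10 of 15 lay above 0 (median 0.48), and of the slow-fibre genes 11 of 13 lay below 0 (median −0.14). The part of these lists in the subunit values was not tested.

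In set 2 the direction was the other way: 77 of 81 members lay below 0 (51.5% of all genes), with a median of −0.30, and the 16 with an unadjusted p under 0.05 were all lower. Restriction libraries all lay below the controls for 10 members (5.72% of all genes) and all above for 0 (7.01%). Medians by complex ran from −0.25 for complex III to −0.42 for complex II. Most of the shift rested on control 23. Without it the median was −0.08, 58 of 81 lay below 0 and 3 had an unadjusted p under 0.05 (8.14% of all genes). The controls without it, 28 and 29, left 2 libraries in that group, whose spread was taken from all groups. On the same CPM scale without control 23, restriction libraries all lay below the controls for 10 members (12.4% of all genes) and all above for 2 (12.5%). All 6 red blood cell genes lay below 0 in set 2 as well (median −1.69, 0 passing adjustment), and also without control 23 (median −0.88). The share of mitochondrial tRNA and rRNA was 2.93% to 6.36% in the set 2 controls and 1.97% to 3.48% in the restriction libraries. The part of either in the subunit values was not tested.

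**Figure D5:**
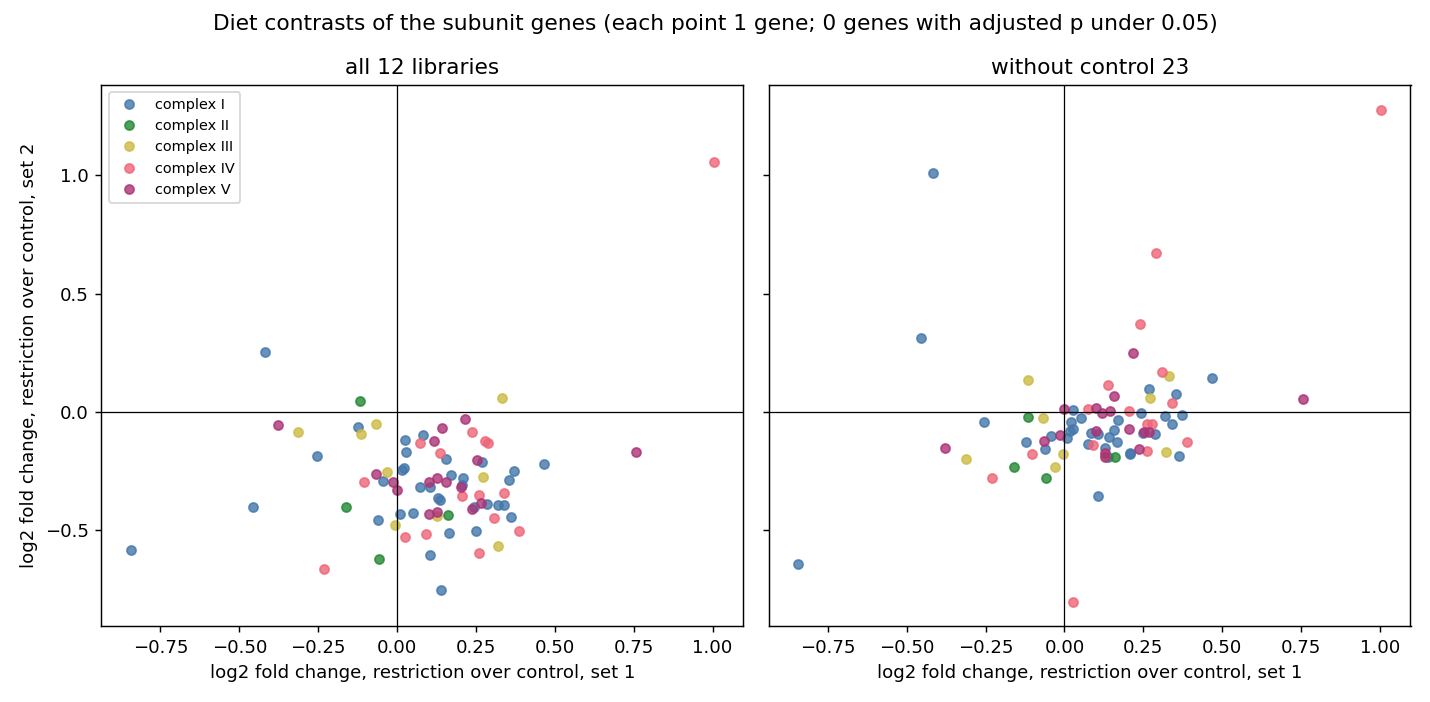
Log2 fold change of restriction over control for each of the 81 tested genes in set 1 (x axis) and set 2 (y axis), coloured by complex, with all 12 libraries (left) and without control 23 (right). In the left panel 77 genes lie below 0 on the y axis (median −0.30), and in the right panel 58 do (median −0.08).

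For single genes in set 1, the 5 with the smallest p are given, none of which passed. Ndufa10l1, a near relative of Ndufa10, had 31.7, 27.3 and 26.6 CPM in the controls and 15.1, 16.4 and 16.2 CPM in the restriction libraries, a log2 fold change of −0.84 ± 0.29 (adjusted p = 0.528 in edgeR). Atp5f1, in the stalk that keeps the ATP synthase head from turning, had 9.78, 12.6 and 14.2 CPM against 20.6, 23.7 and 17.6 CPM (0.76 ± 0.28, adjusted p = 0.568). Groups of Ndufa10l1 and Atp5f1 did not overlap, in opposite directions. RefSeq has 3 named copies or pseudogenes of Atp5f1, and reads shared with them could have been counted there. Atp5a1 was at −0.38 ± 0.17 (adjusted p = 0.631), Ndufs8 at 0.37 ± 0.18 (0.650) and Ndufa6 at 0.36 ± 0.19 (0.668), again with groups that did not overlap.

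In set 2 the smallest p belonged to Ndufa10, an accessory subunit of the complex I membrane arm. It had 442, 278 and 286 CPM in the controls and 205, 267 and 190 CPM in the restriction libraries, a log2 fold change of −0.60 ± 0.19 (adjusted p = 0.499 in edgeR). Without control 23 it was at −0.35 (adjusted p = 0.563). Every restriction library lay below every control. Cox6a1 (−0.66 ± 0.24), Sdhd (−0.40 ± 0.16), Sdhc (−0.62 ± 0.25) and Cox6a2 (−0.59 ± 0.24) followed, with adjusted p from 0.536 to 0.549 in edgeR. Without control 23 these 4 were at −0.28, −0.23, −0.28 and −0.16.

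Sdhd, an anchor of complex II, was the member whose restriction libraries lay below the controls in both sets: 439, 459 and 491 CPM against 438, 433 and 372 CPM in set 1, and 642, 429 and 513 CPM against 379, 427 and 395 CPM in set 2. The gaps were small, 438 against 439 CPM in set 1 and 427 against 429 CPM in set 2. Of all genes 0.408% had this pattern, and 0.394% had restriction libraries above the controls in both sets, as 0 members did. Its mean log2 fold change over both sets was −0.28 ± 0.11 (adjusted p = 0.567 in edgeR). This gene was picked out after its values were seen.

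Over both sets together Ndufa10l1 had the smallest p, at −0.71 ± 0.20 (adjusted p = 0.471 in edgeR). Of the 81 members 68 lay below 0 for this mean (51.8% of all genes), with a median of −0.08, and 33 did without control 23. In set 2 Ndufa10l1 had 27.7, 31.5 and 31.9 CPM in the controls and 14.1, 34.0 and 12.8 CPM in the restriction libraries, so restriction 33 stood with the controls and the other restriction libraries well below them. Without restriction 33 the mean was −1.01 and it was the 1 member called in any of the diet comparisons (adjusted p = 0.0116 in edgeR). Its parent Ndufa10 was also lowest in restriction 32 and 35 within set 2 (205 and 190 CPM), but in set 1 its restriction libraries, at 259 to 279 CPM, lay above the controls at 233 to 258 CPM while those of Ndufa10l1 lay below. Ndufa10l1 and Ndufa10 are near copies, and how reads were divided between them is uncertain. Next by p for the mean were Cox6a1 (−0.45 ± 0.17), Sdhd, Cox6b2 (1.03 ± 0.50, on 5 to 35 counts) and Sdhc (−0.34 ± 0.17). Without control 23 Cox6a1 was at −0.25 and Sdhc at −0.17.

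The difference of the diet effect between sets had a median of −0.44 over members, with 70 of 81 below 0 (50.2% of all genes), and −0.20 with 67 of 81 below 0 without control 23. The 5 members with the smallest p were Ndufa6 (−0.80 ± 0.27), Cox7a2 (−0.89 ± 0.32), Ndufa10 (−0.71 ± 0.27), Uqcrb (−0.89 ± 0.33) and Cox6a2 (−0.86 ± 0.34). None passed adjustment (adjusted p from 0.445 to 0.489 in edgeR). Without control 23 they were at −0.55, −0.51, −0.46, −0.49 and −0.42. Restriction libraries lay all above the controls in set 1 and all below them in set 2 for 4 members, Ndufa6, Ndufa10, Cox6a2 and Cox7a2 (0.541% of all genes), and the reverse held for 0 members (0.879% of all genes).

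The neighbouring genes held 0 calls in any diet comparison too. Cycs, cytochrome c, had 175, 315 and 245 CPM in the set 1 controls and 211, 161 and 175 CPM in the restriction libraries, and 406, 259 and 387 CPM against 211, 244 and 215 CPM in set 2. Its mean log2 fold change was −0.54 ± 0.15 (adjusted p = 0.472 in edgeR), and in set 2 every restriction library lay below every control. Esrra, a receptor that drives many subunit genes, had 121, 179 and 205 CPM against 118, 99.7 and 81.5 CPM in set 1 (−0.76 ± 0.20, adjusted p = 0.509) and was at −0.09 ± 0.20 in set 2. Ppargc1a was at −0.45 and 0.06 in sets 1 and 2, and Tfam at 0.20 and −0.17, without passing. The set 2 values without control 23 were −0.02 for Esrra, 0.33 for Ppargc1a and −0.12 for Tfam.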

How the data were processed

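RNA came from rat muscle. The library kit marks no strand, per the labels' protocols, and sense and antisense reads were therefore counted alike. The submitters' processing notes name the build Rnor_6.0 and, as tools, DESeq2, featureCounts, HISAT2 and Trimmomatic, and no versions were found in the labels. The values analysed are the authors' deposited raw counts per gene, whole numbers without normalization. A second deposited table, holding those counts times 1 constant per library, was not used.

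filterByExpr over the 4 groups kept 14225 genes, and TMM set the scaling. With edgeR 4.0.16 (R 4.3.3), each group had its own mean, contrasts were tested by quasi-likelihood, and p was adjusted (Benjamini-Hochberg) over all genes at 0.05. The SE is the log2 fold change over the square root of F. CPM is TMM-scaled. Isoform ratios used exact permutation tests over libraries and a pseudocount of 0.5 CPM. Alternatives were DESeq2 1.42.0, limma 3.58.1 (voom), other scalings and filters, libraries of 1 set, a replicate block, no mitochondrial tRNA or rRNA genes (added after seeing the data), and leaving out each library. The fit was tested on simulated counts. Replicates all differed by more than counting noise (chi-square per degree of freedom 24.5 to 146.6).

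The members, the gene lists and the classes of subunits were chosen with earlier results of these data known. Named in the set comparison were the isoform genes, Sdha and the 3 highest and 3 lowest fold changes per complex; in diet comparisons, called genes or the 5 smallest p; from other lists, the 3 smallest p and Ppargc1a, Ppargc1b, Esrra, Nrf1, Gabpa, Tfam and Cycs. Other genes named were chosen after their values were seen. Promoters came from RefSeq (GRCr8). The counts over members include 1 gene that is not reported here. Gene lengths and protein sequences were not used here.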

Additional observations from a re-analysis of the deposited data

Results flagged for a closer look

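For 4 members every restriction library lay above the controls in set 1 and below them in set 2, and the difference between the sets in the diet effect is given for each. The pattern that picked these genes also fixes the sign of that difference, so its values only describe them. This pattern held for 4.94% of the 81 tested members and for 0.541% of all 14225 genes; the reverse pattern held for 0 members and 0.879% of genes. Most members were high or low in the same libraries within a set, so these shares do not count independent genes. For Ndufa10 the difference was −0.71, from 0.10 in set 1 and −0.60 in set 2. For Ndufa6 it was −0.80, from 0.36 and −0.44. For Cox6a2 it was −0.86, from 0.26 and −0.59, and for Cox7a2 −0.89, from 0.39 and −0.50. None of the 4 passed adjustment in edgeR (adjusted p = 0.465, 0.445, 0.489 and 0.454). Without control 23, the highest library of set 2 for each of these 4 genes, the differences were −0.46, −0.55, −0.42 and −0.51.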

How the results depend on the processing

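In the set comparison, members called lower numbered 22 with library size alone as scaling and from 6 to 31 over the fits that left out 1 library, with 31 without control 23; members called higher ran from 6 to 9. The split over all genes with library size alone was 2102 higher and 3384 lower, against 2832 and 2788. Medians of the diet effect ran from −0.43 to −0.079 in set 2 and from −0.54 to −0.20 for its difference between sets, with the values nearest 0 without control 23. Members at an unadjusted p under 0.05 in set 2 numbered 29 and 33 without control 28 or 29, 8 without control 8 and 10 without restriction 13. They numbered 3 without control 23, restriction 32 or restriction 35. For the difference between sets they ran from 4 to 31. With all 12 libraries the shares over all genes were 8.59% in set 2 and 9.5% for the difference, and without control 23 they were 8.14% and 8.46%. For the fits without another library such shares were not counted, so the member counts of those fits have no matching share beside them. For the mean over sets, from 0 to 1 member was called lower, the 1 being Ndufa10l1 without restriction 33. Isoform ratio differences ran from 0.34 to 0.53 for subunit 6a and from 0.45 to 0.65 for subunit 8, with both highest values, and the only ones to pass adjustment, without restriction 12.

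Without control 23 the members below 0 between the sets went from 51 to 60, and 9 of 81 changed sign, all within 0.076 of 0 with all libraries. Among the members named by rule, signs reversed for 6, none of which passed. With library size alone Atp5f1 was at −0.057, Cox4i1 at −0.085, Cox7a1 at −0.019 and Sdhd at −0.045; Atp5f1 was at −0.00711 with limma-voom and Ndufa4l2 at 0.00789 with no filter. Leaving out 1 library gave ranges of −0.11 to 0.19 for Atp5f1, −0.054 to 0.082 for Cox4i1, −0.43 to 0.49 for Cox7a1, −0.18 to 0.025 for Cyc1, −0.25 to 0.093 for Ndufa4l2 and −0.022 to 0.14 for Sdhd. The causes were not tested.

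The title numbers of the sets differ by 20, and deviations of libraries so paired correlated at 0.0791 to 0.175. Libraries that do not match in this way were not compared, so these values cannot tell whether the sets share animals. The main fit did not use the title numbers as pairs, and its p-values do not allow for shared animals. A replicate block on these numbers in edgeR gave 6 members higher and 8 lower between the sets, with Ndufs7 (0.35, adjusted p = 0.0710 in edgeR) no longer passing. It gave 0 members for the difference of the diet effect between sets. For the diet effect in each set and its mean, the numbers entered limma-voom as a random effect instead, which gave 0 members. Without a block, DESeq2 gave 9 members higher and 8 lower between the sets, and limma-voom 9 and 12. With 3 libraries per group, even 2-fold changes may go undetected, above all for the difference of the diet effect between sets (7% called in simulated counts). Counting error limits Cox7a1, Cox6b2 and Ndufa1.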
